A study of Mus musculus with 30 samples.

Results

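Gfap, Vim, Nes and Synm encode the 4 intermediate filament proteins that are found together in astrocytes, and they were followed mouse by mouse through the hippocampus RNA of 30 male BALB/c mice. The 4 genes were taken by symbol from a table of 21412 genes. They were chosen by their measured difference between mice fed a high dose of methylmercury (MeHg) and control mice, so every comparison with the high-dose mice is given as a description, with no p-value. They also enter the limma fits of LD against Ctr, Se_Ctr against Ctr and Se_LD against LD through the shared estimate of the spread. Gfap encodes glial fibrillary acidic protein, the main filament of mature astrocytes, and Vim encodes vimentin, which is shared with endothelial cells, fibroblasts, microglia and immature glia. Nes encodes nestin, a filament of neural progenitors and vessels that needs vimentin as a partner, and Synm encodes synemin, a large linking subunit that joins the filament network. Astrocytes that meet injury, inflammation or a toxicant usually thicken this network, a state called reactive gliosis, for which Gfap is the most used marker. STAT3, activated by cytokines of the interleukin-6 family through the receptor subunit gp130, is a well known activator of Gfap transcription.

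The study asked how dietary MeHg, a neurotoxic form of mercury found in seafood, changes gene expression in the hippocampus. The mice of the control group (Ctr), the low-dose group (LD) and the high-dose group (HD) arrived at an age of 2 to 3 weeks and were housed singly. They were fed for 11 weeks, Ctr without added MeHg but with cysteine, LD with 0.28 mg and HD with 5 mg MeHg per kg of feed, in which MeHg was bound to cysteine. The other groups are labelled Se_Ctr, Se_LD and Se_HD, read here as control, low and high dose of MeHg with selenium. Neither the form and amount of selenium nor the dose and length of MeHg feeding in these 3 groups is given in the sources used here. Each group had 5 mice with 1 library each, numbered as replicates 1 to 5 without pairing between groups. Between 5768208 and 11510521 reads per library lay on genes. The deposited unit is the normalized count, a read count divided by a size factor for the library. The lowest Gfap value rested on 983 reads, the lowest of Vim on 123, of Nes on 118 and of Synm on 514. All 8 markers of hippocampal granule and pyramidal neurons and all 14 markers of resting astrocytes were detected in every library.

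Gfap, on chromosome 11, carried most of the filament RNA. In NCBIM37 coordinates the genes lie at chr11:102748650-102762226 on the minus strand (Gfap), chr2:13495554-13504453 on the plus strand (Vim), chr3:87775000-87784373 on the plus strand (Nes) and chr7:74875047-74904628 on the minus strand (Synm). Divided by the total length of its exons, the level of Gfap in Ctr mice was 415 ± 52.8 normalized counts per kb (SD, n = 5). On the same per-length scale Vim stood at 99.4 ± 11.7, Synm at 92.8 ± 9.99 and Nes at 29.3 ± 2.61. Of the summed per-length level of the 4 genes, Gfap made up 65.2% in Ctr mice, 72.4% in Se_HD mice and 84.1% in HD mice. A non-coding gene on the opposite strand, Gm17536, spans Gfap without sharing an exon base, and its mean was 4.24 normalized counts against 3691 for Gfap.

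The sequence before the start of Gfap and Vim is shown because Stat3 is among the genes described with them below. The 2000 bases before the first protein-coding transcript of each gene were read from NCBIM37, the build of the deposited table, which is the genome of another mouse strain. For Gfap this is chr11:102758515-102760514 on the minus strand, which holds no Gfap exon but lies inside the span of a longer non-coding Gfap transcript. For Vim it is chr2:13493554-13495553 on the plus strand. The letters of the STAT motif, TTCNNNGAA, occurred at 2 places before Gfap, 2 before Vim, 1 before Nes and 0 before Synm. Among the windows of 22350 protein-coding genes, 48.8% held at least 1 match. The matches before Gfap and Vim are in capitals, with 60 bases on either side, read 5′ to 3′ along the gene's strand and ordered from the farther to the nearer to the start:
Gfap, match 1914 bases before the start, chr11:102760360-102760488: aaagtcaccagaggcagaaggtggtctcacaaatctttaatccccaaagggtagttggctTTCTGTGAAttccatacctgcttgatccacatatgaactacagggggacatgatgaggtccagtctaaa
Gfap, match 1446 bases before the start, chr11:102759892-102760020: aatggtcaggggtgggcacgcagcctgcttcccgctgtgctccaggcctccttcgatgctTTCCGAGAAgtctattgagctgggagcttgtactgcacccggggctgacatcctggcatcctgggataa
Vim, match 1420 bases before the start, chr2:13494074-13494202: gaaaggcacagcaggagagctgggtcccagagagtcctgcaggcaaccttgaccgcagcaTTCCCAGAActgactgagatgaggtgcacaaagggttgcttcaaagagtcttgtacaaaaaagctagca
Vim, match 789 bases before the start, chr2:13494705-13494833: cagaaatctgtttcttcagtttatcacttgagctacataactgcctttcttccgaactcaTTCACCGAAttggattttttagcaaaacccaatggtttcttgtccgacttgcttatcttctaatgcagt

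The other motifs searched on both strands gave few matches. The AP-1 letters TGANTCA, bound by Fos and Jun proteins, occurred once before Gfap, Nes and Synm each and at 3 places before Vim, and 43.4% of all windows held them. The RBPJ letters GTGGGAA, which serve Notch signalling, occurred at 0 places before Gfap and Vim, 1 before Nes and 2 before Synm, with a share of 33.4% of all windows. The NFI palindrome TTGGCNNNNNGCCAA, found in 0.1% of windows, and the SMAD palindrome GTCTAGAC, found in 1.7%, had no match before any of the 4 genes. No match overlapped another. A match is a run of letters and not a measured binding site.

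Gfap was higher in every HD mouse than in any other mouse. The 5 Ctr mice had 1722, 1673, 1988, 1430 and 1930 normalized counts. The 5 HD mice had 5143, 32820, 4080, 7281 and 12446. The HD values thus lay apart from all Ctr values, and they spread 8.04-fold from lowest to highest against 1.39-fold in Ctr mice. Replicate 2 of HD stood highest of all 30 mice and replicate 5 of HD second. The log2 fold change of HD against Ctr was 2.39 with a standard error (SE) of 0.35 and a 95% interval of 1.66 to 3.12, which is a 5.24-fold higher geometric mean. Without HD replicate 2 the log2 fold change was 1.93, and HD against LD gave 2.28. Of 20031 genes tested, 0.978% likewise had all 5 HD mice above all 5 Ctr mice, and by size the log2 fold change of Gfap was in place 7 from the top of the 14296 genes whose mean reached 10 normalized counts. In bulk tissue more cells of a type and more RNA per cell cannot be told apart.

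**Figure D1:**
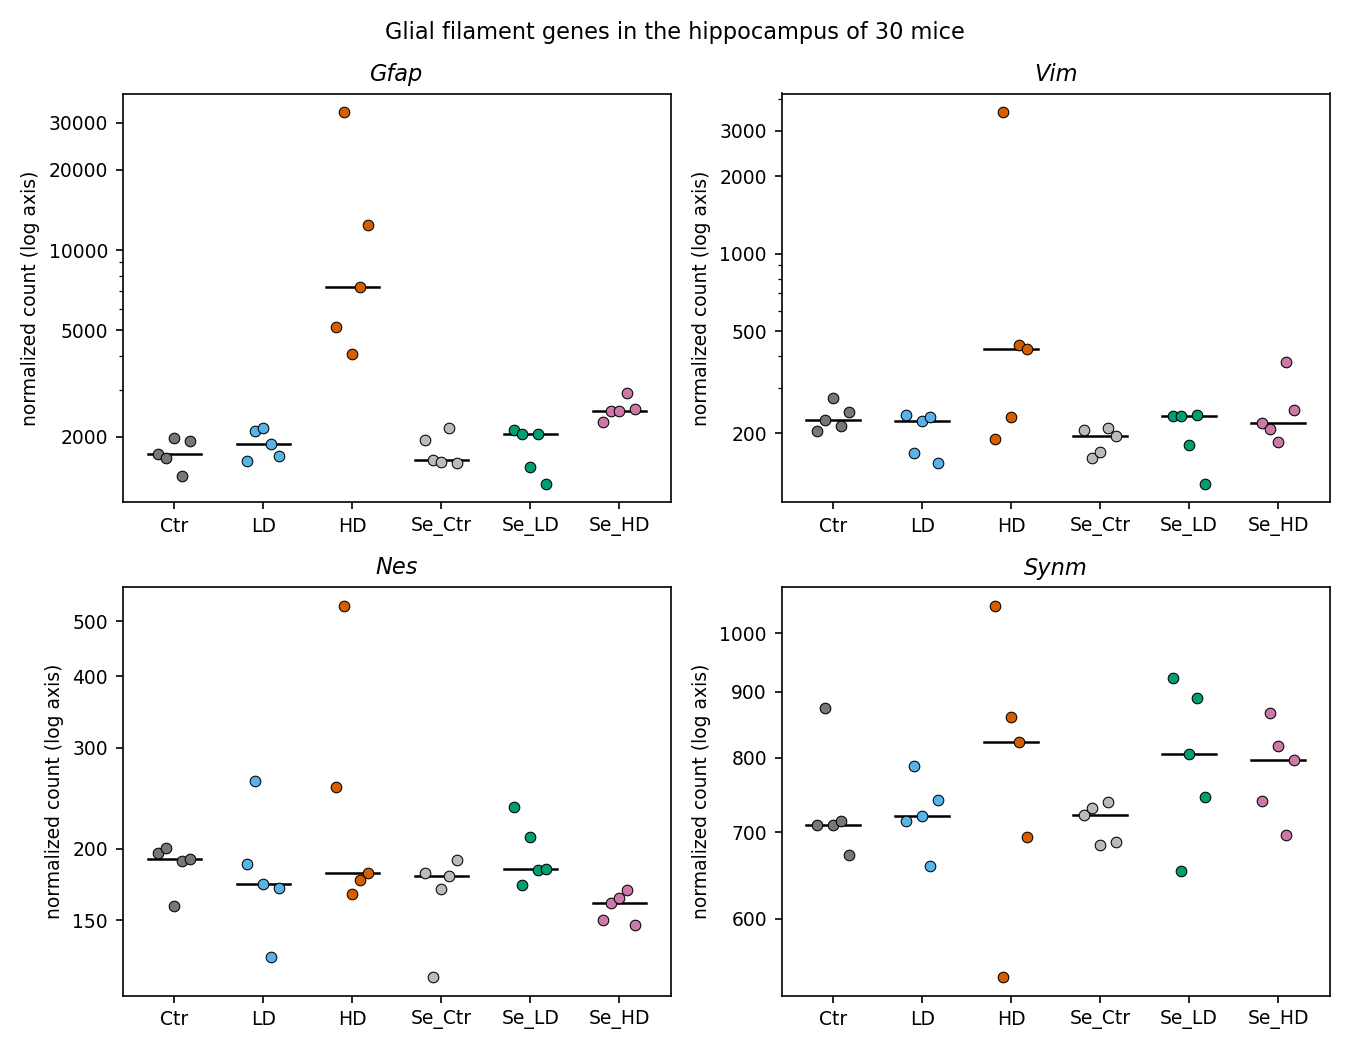
Normalized counts of Gfap, Vim, Nes and Synm on log axes in the 6 groups, with a point for each mouse and a line at the median of each group. The 5 HD points of Gfap, between 4080 and 32820, lie above the 25 points of the other groups, whose highest is 2909, while for Vim, Nes and Synm the HD points overlap those of the other groups.

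Outside HD, Gfap stayed between 1337 and 2909 normalized counts. LD mice had 1623, 2095, 2149, 1884 and 1701. Se_Ctr mice had 1950, 1637, 1610, 2165 and 1596, and Se_LD mice had 2116, 2044, 1546, 2042 and 1337. These 3 groups overlapped each other and Ctr. The Se_HD mice had 2264, 2499, 2491, 2909 and 2546 and so lay above every mouse of Ctr, LD, Se_Ctr and Se_LD and below every HD mouse. The share of all genes with this separation was not counted. In the order of group means (HD 12354, Se_HD 2542, LD 1891, Se_LD 1817, Se_Ctr 1792, Ctr 1748), neighbours among the last 4 differed by less than the larger of their SDs. HD and Se_HD differed by less than the SD of HD, 11886, although their mice did not overlap.

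Within the selenium groups Gfap was higher in Se_HD than in Se_Ctr in 5 of 5 mice. The means were 2542 ± 233 and 1792 ± 255 normalized counts (SD, n = 5), the log2 fold change was 0.51 (SE 0.12) and the 95% interval was 0.27 to 0.75. The unadjusted limma p was 0.000259 and the exact two-sided permutation p was 0.00794, the smallest that 5 mice against 5 allow. After Benjamini-Hochberg adjustment over 19679 genes the limma p was 0.728, so the difference did not pass the threshold of 0.05 on adjusted p. In this comparison 4.19% of all genes had an unadjusted p under 0.05, 0% passed on adjusted p, and 0.478% had all 5 Se_HD mice above all 5 Se_Ctr mice. By size the log2 fold change of Gfap was in place 284 from the top of the 14296 genes whose mean reached 10 normalized counts. Against Se_LD the log2 fold change of Gfap in Se_HD was 0.50 (SE 0.12), in place 250 of the 14296 genes, with an unadjusted limma p of 0.000304 and an adjusted p of 0.477. The 5 and 5 mice again did not overlap, and the share of all genes without overlap was not counted for Se_HD against Se_LD. Of all genes, 4.94% had an unadjusted p under 0.05 in that comparison and 0% passed on adjusted p. With all 30 libraries in the fit, which takes in the spread of the HD mice, the unadjusted p of Gfap in Se_HD against Se_Ctr was 0.0843.

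The summed level of 9 markers of meningeal and perivascular fibroblasts, such as the collagen gene Col1a2 and the growth factor gene Igf2, moved with this comparison. It lay between 5457 and 7679 normalized counts in Se_HD and between 2297 and 4939 in Se_Ctr mice. In the other groups it lay between 2218 and 5736 in Ctr, 2439 and 6317 in LD, 3769 and 7217 in HD and 1574 and 6672 in Se_LD. Of the 9 markers, 6 had an unadjusted limma p under 0.05 (4.19% of all genes) with higher values in Se_HD, 0 passed on adjusted p and none was at 0 in any library. In Se_HD against Se_LD 6 of 9 were likewise higher in Se_HD at such a p (4.94% of all genes had one), with a median log2 fold change of 0.94. In that comparison 4 of 5 thalamus markers were lower in Se_HD at an unadjusted limma p under 0.05 (median -0.87), and 10 choroid plexus markers had a median of 1.53 with 0 under that p. No marker of these lists passed on adjusted p there. The choroid plexus sums overlapped, at 14283 to 53094 in Se_HD, 1340 to 55094 in Se_LD and 10715 to 30513 in Se_Ctr. The part of these cells in the Gfap and Vim values was not tested.

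The changes of Gfap in HD against Ctr and in Se_HD against Se_Ctr were set side by side, although the MeHg dose of Se_HD is not given. The log2 fold change against the matching control was 2.39 without and 0.51 with selenium, and the difference between the 2 changes was -1.88 (SE 0.41, 95% interval -2.70 to -1.05). Without HD replicate 2 it was -1.42. Se_HD mice had a log2 fold change of -1.84 (SE 0.29) against HD mice. For Vim the difference between the diets was -0.74 with an interval of -1.89 to 0.42, for Nes -0.40 with -0.98 to 0.18 and for Synm 0.05 with -0.28 to 0.38. These 3 values were -0.026, -0.11 and -0.077 without HD replicate 2. No test of these differences was made.

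Vim followed Gfap in some HD mice only. In Ctr mice Vim had 204, 226, 274, 214 and 242 normalized counts, and in HD mice 190, 3548, 231, 440 and 426. Replicates 2, 4 and 5 of HD lay above all 25 mice of the other groups, whose highest value was 380, while replicate 1 lay below all Ctr mice. The log2 fold change of HD against Ctr was 1.09 (SE 0.48), and it was 0.38 without replicate 2, whose Vim was 9.33 times the highest value outside HD. By edgeR, which compares means of counts and not of logarithms, the same log2 fold change was 2.06.

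In the other groups Vim ranged from 128 to 380. Se_HD mice had 219, 208, 186, 380 and 247 and Se_Ctr mice 207, 160, 170, 210 and 195, so that the groups overlapped. The log2 fold change was 0.36 (SE 0.17), with an unadjusted limma p of 0.0539, an adjusted p of 1.00 and an exact permutation p of 0.0873. It was 0.19 without Se_HD replicate 4. Between Se_Ctr and Ctr, fitted over all 30 libraries and with the Ctr mice that also served to choose the genes, the log2 fold change of Vim was -0.30 (SE 0.40), with 0 of 5 Se_Ctr mice above the Ctr mean. The exact permutation p, 0.0238, was not adjusted for the 24 tests of 4 genes in 6 comparisons, and the limma p was 0.460, or 0.0144 with the 2 groups alone (adjusted p 0.997). Of the markers of cells that can contain vimentin, 9 fibroblast markers had a median log2 fold change of -0.46, 10 pericyte and smooth muscle markers -0.26, 10 endothelial markers -0.06, 12 microglia markers 0.03, 14 neural progenitor markers 0.01, 8 ependymal markers 0.21 and 10 choroid plexus markers 0.92 (0.00 over all genes). In each of the first 3 lists 2 markers had an unadjusted limma p under 0.05 with lower values in Se_Ctr (4% of all genes had one in either direction), in the other 4 lists 0 had, and 0 passed on adjusted p. The summed levels overlapped for fibroblasts (2297 to 4939 in Se_Ctr and 2218 to 5736 in Ctr), for pericytes (2707 to 3027 and 2688 to 3486) and for endothelial cells (2977 to 3132 and 3089 to 3279). Their part in the Vim values was not tested.

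Nes, the least abundant of the 4, was high in 1 mouse. In HD mice Nes had 257, 532, 167, 176 and 182 normalized counts against 197, 201, 159, 190 and 192 in Ctr mice. Replicate 2 of HD had 2.03 times the highest value of the 25 mice outside HD, and the other 4 HD mice lay within the range of those mice. The log2 fold change of HD against Ctr was 0.33 (SE 0.24), and 0.04 without replicate 2.

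Among the selenium groups Nes had its lowest mean in Se_HD. Se_HD mice had 150, 161, 164, 170 and 147, Se_LD mice 236, 173, 210, 183 and 184 and Se_Ctr mice 181, 119, 170, 179 and 191. Each Se_HD mouse lay below each Se_LD mouse, and the Se_HD and Se_Ctr mice overlapped. The share of all genes whose Se_HD mice lay below all Se_LD mice was not counted. Se_HD against Se_LD gave a log2 fold change of -0.31 (SE 0.12, 95% interval -0.55 to -0.07), with an unadjusted limma p of 0.0151, an exact permutation p of 0.00794 and an adjusted limma p of 0.947. The exact permutation p was not adjusted for the number of tests. Against Se_Ctr the log2 fold change in Se_HD was -0.07 with an interval of -0.31 to 0.17. It was -0.19 without Se_Ctr replicate 2 and -0.019 without Se_Ctr replicate 5. Of 5 thalamus markers, 4 had an unadjusted limma p under 0.05 (4.94% of all genes) with lower values in Se_HD than in Se_LD, 0 passed on adjusted p, and their summed level was 890 to 1166 normalized counts in Se_HD and 906 to 2698 in Se_LD, with none at 0. Between Se_HD and Se_Ctr 0 of the 5 had such a p (median -0.03). Of the 9 fibroblast markers 6 were higher in Se_HD than in Se_LD at that threshold and 0 passed on adjusted p, and of the 10 choroid plexus markers 0 had such a p, with a median of 1.53. The part of these cells in the Nes values was not tested.

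Synm varied least. It ranged from 540 to 1050 normalized counts over the 30 mice, a 1.94-fold spread, against 24.6-fold for Gfap, 27.8-fold for Vim and 4.46-fold for Nes. In HD mice Synm had 1050, 540, 861, 822 and 694, which includes both the highest and the lowest value of the study. The lowest was replicate 2, the mouse in which Gfap, Vim and Nes were highest. HD against Ctr gave a log2 fold change of 0.08 (SE 0.13), and it ranged from -0.030 without replicate 1 to 0.21 without replicate 2. In Se_HD against Se_Ctr it was 0.13 (SE 0.08, 95% interval -0.04 to 0.31), with an unadjusted limma p of 0.126 and an exact permutation p of 0.0556.

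The low dose gave no difference in the 4 genes that passed a test. In LD against Ctr, which shares its controls with the comparison that chose the genes, the log2 fold changes were 0.11 for Gfap, -0.21 for Vim, -0.05 for Nes and -0.02 for Synm, with 95% intervals of -0.62 to 0.84, -1.22 to 0.80, -0.55 to 0.45 and -0.29 to 0.26. The lowest unadjusted limma p was 0.668, and 3.01% of all genes had one under 0.05. With each mouse left out in turn, Gfap ranged from 0.044 to 0.17 and Vim from -0.27 to -0.12. The HD mice widened the 95% intervals through the shared estimate of the spread, and with LD and Ctr alone the SE for Gfap was 0.11 in place of 0.35. Of markers of cells that can contain vimentin, fibroblasts had a median of -0.38, pericytes and smooth muscle -0.13 and endothelium -0.07. Microglia had 0.09, neural progenitors 0.21, ependyma 0.45 and choroid plexus 0.60. At an unadjusted limma p under 0.05, 1 of 9 fibroblast and 2 of 10 pericyte markers were lower in LD. At that p 1 of 14 neural progenitor and 3 of 8 ependymal markers were higher. None passed on adjusted p, and their part in the Vim values was not tested. In Se_LD against Se_Ctr the log2 fold changes were 0.01 for Gfap, 0.07 for Vim, 0.24 for Nes (unadjusted limma p 0.0530) and 0.16 for Synm (unadjusted limma p 0.0659), where 3.31% of all genes had an unadjusted p under 0.05. Leaving out each mouse in turn gave 0.0082 to 0.23 for Vim (highest without Se_LD replicate 5), 0.12 to 0.29 for Nes (lowest without Se_Ctr replicate 2) and 0.11 to 0.23 for Synm (lowest without Se_LD replicate 1). Of 5 thalamus markers, 4 had an unadjusted limma p under 0.05 in this comparison with higher values in Se_LD, the median was 0.96 and 0 passed on adjusted p. Their part in these values was not tested.

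Se_Ctr against Ctr and Se_LD against LD gave no difference past the threshold either. In Se_Ctr against Ctr, Gfap differed by 0.03 on the log2 scale (95% interval -0.55 to 0.62), Nes by -0.17 and Synm by -0.04, and 4% of all genes had an unadjusted p under 0.05. The Nes difference was -0.053 without Se_Ctr replicate 2. In Se_LD against LD the values were -0.07 for Gfap, -0.02 for Vim, 0.12 for Nes and 0.14 for Synm, and 2.86% of all genes had an unadjusted p under 0.05. With each mouse left out in turn, Nes ranged from 0.0038 to 0.26 and Synm from 0.087 to 0.21. At an adjusted p under 0.05 limma called 0% of all genes in each of the 6 tested comparisons. The unadjusted calls were 603 genes in LD against Ctr, 825 in Se_HD against Se_Ctr, 652 in Se_LD against Se_Ctr, 973 in Se_HD against Se_LD, 855 in Se_Ctr against Ctr and 611 in Se_LD against LD. On adjusted p edgeR called 0 genes in each, and DESeq2 called 4 in Se_HD against Se_Ctr, 7 in Se_HD against Se_LD and 0 in the others, none of them among the 4 filament genes.

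**Figure D2:**
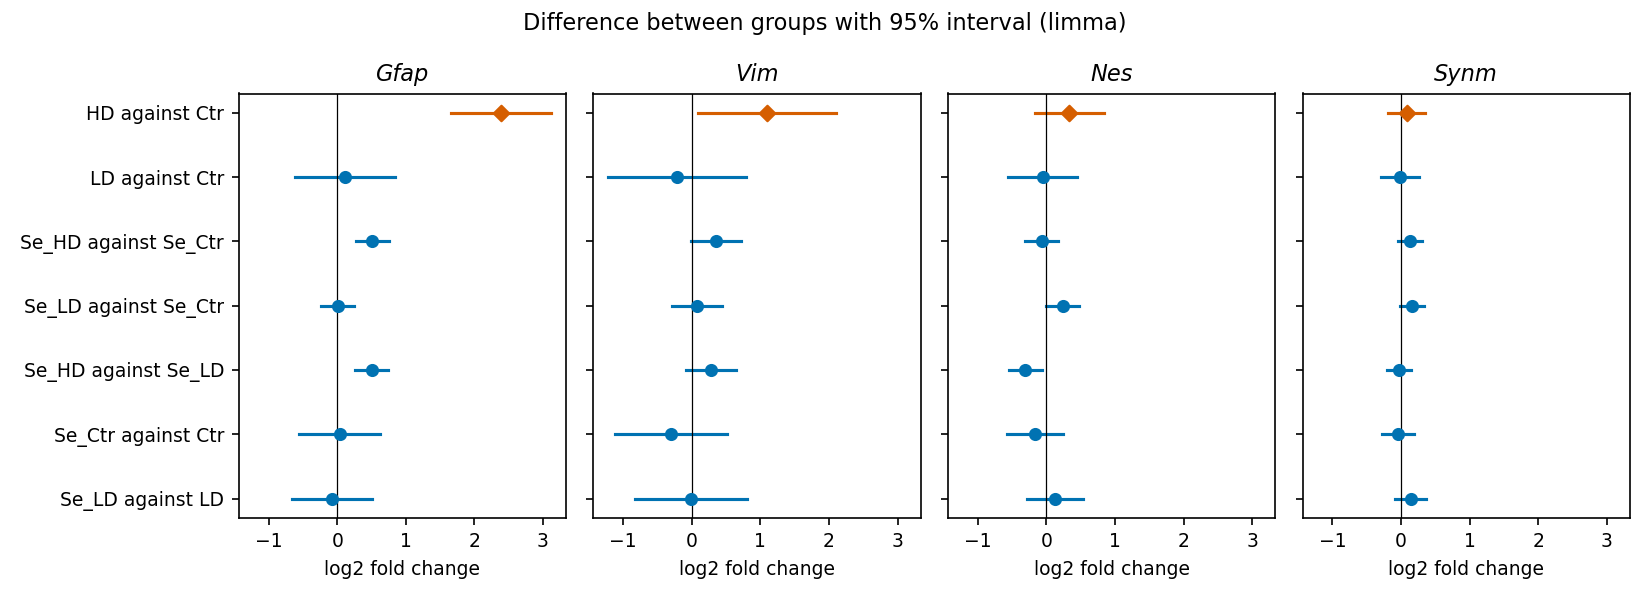
Log2 fold changes of the 4 genes in 7 comparisons, with the limma estimate as a point and its 95% interval as a bar. Diamonds mark HD against Ctr, which chose the genes and was not tested, and among the 6 tested comparisons the Gfap bars of Se_HD against Se_Ctr and Se_HD against Se_LD and the Nes bar of Se_HD against Se_LD leave out 0.

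To see whether the genes varied together from mouse to mouse, the deviations of log2 counts from the group means were correlated over the 30 mice for the 6 pairs of genes. The 30 mice include the HD mice whose values chose the genes, so r and Spearman's rho over all 30 are a description, and permutation tests were made in the 25 mice outside HD. Over all 30 mice Gfap and Vim had Pearson's r of 0.91 and rho of 0.63, and r was 0.72 without the 2 mice farthest from the median of Gfap, both of HD. In the 25 mice outside HD, r was 0.65 and rho 0.61, with permutation p adjusted over the 6 pairs of 0.0074 and 0.024. Leaving out the 2 of these 25 mice farthest from the median of Gfap gave r = 0.55.

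None of the other 5 pairs passed the threshold in the 25 mice outside HD. Vim and Synm had r = -0.20 and rho = -0.20 there (adjusted permutation p 0.76 and 0.75), while over all 30 mice r was -0.71, and -0.43 without HD replicate 2. Gfap and Nes had r = 0.15 and rho = 0.11 (adjusted permutation p 0.76 and 0.75), while over all 30 mice r was 0.62, and 0.03 without HD replicate 2. Gfap and Synm had r = 0.10 and rho = 0.13 (adjusted permutation p 0.87 and 0.75), against r = -0.64 over all 30 mice. Vim and Nes had r = -0.024 and rho = -0.0038 (adjusted permutation p 0.91 and 0.99), against r = 0.61 over all 30 mice. Nes and Synm had r = 0.37 and rho = 0.29 (adjusted permutation p 0.11 and 0.54), against r = -0.23 over all 30 mice and 0.46 without HD replicate 2.

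**Figure D3:**
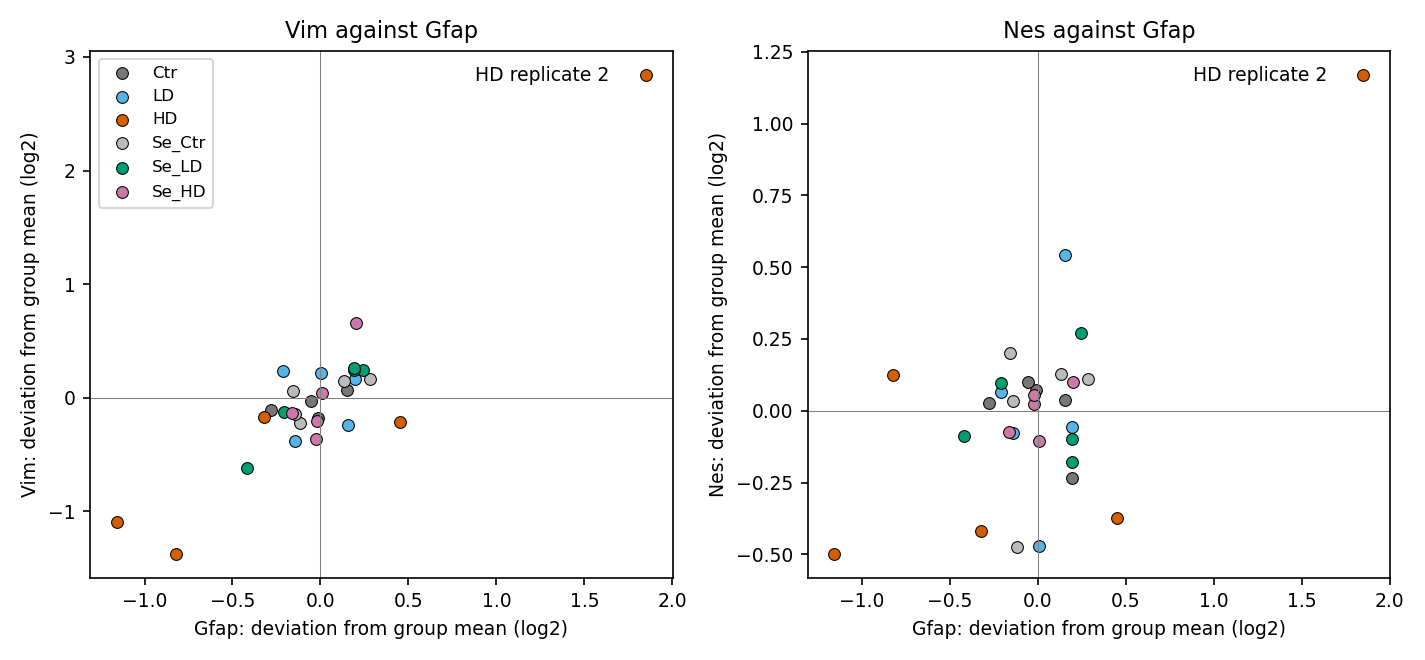
Deviation of the log2 normalized count from the group mean in each of the 30 mice, with Gfap on the x axis and Vim (left) or Nes (right) on the y axis, coloured by group. Vim follows Gfap in the mice outside HD as well (r = 0.65), while the relation of Nes with Gfap hangs on HD replicate 2 at the upper right (r = 0.62 with and 0.03 without it).

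HD replicate 2 also stood apart in the markers of cell types. The summed level of 17 markers of reactive astrocytes was 11048 normalized counts in this mouse, at most 2491 in the other 4 HD mice and at most 1849 in the 25 mice outside HD. It had 3372 normalized counts over 14 neural progenitor markers, where the other 4 HD mice had at most 2464 and the 25 mice at most 2395. Over 12 microglia markers it had 9604, not far above another HD mouse at 8378, where the 25 mice had at most 3807. Over 8 neuron markers it had 62036 and over 6 oligodendrocyte markers 27012, the lowest sums of the 30 mice. Of genes named after their values were seen, Aqp4, the astrocyte water channel, stood at 9364 in this mouse against at most 2031 outside HD, and Cd44, a cell surface receptor of reactive astrocytes, at 1610 against at most 86.1. The part of these cells in the values of Vim, Nes and Synm was not tested.

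Of 20 other intermediate filament genes 19 were tested, with a median log2 fold change of HD against Ctr of 0.09 (0.01 over all genes), and 0 of them had all HD mice above all Ctr mice (0.978% of all genes), a number near that share. The neurofilament genes Nefl, Nefm, Nefh and Ina, which are expressed in neurons and are the most abundant of the list, had log2 fold changes of 0.12, 0.39, -0.03 and -0.18 in HD against Ctr. In Se_HD against Se_Ctr the median was -0.02 (-0.01 over all genes) and 0 of 19 had an unadjusted limma p under 0.05 (4.19% of all genes), also near that share.

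Over 20 tested genes for filament linkers, chaperones and modifying enzymes the median log2 fold change of HD against Ctr was 0.20 (0.01 over all genes), and 0 had all HD mice above all Ctr mice (0.978% of all genes), a number near that share. The most abundant were Macf1, a linker of filaments and microtubules (0.04), Sqstm1, an autophagy receptor (0.20), and the kinases Rock2 (-0.06) and Pak1 (-0.23). In Se_HD against Se_Ctr 2 of 20 had an unadjusted limma p under 0.05 (4.19% of all genes), a number near that share, and 0 passed on adjusted p. Both were higher in Se_HD and are named after their values were seen, the small heat shock protein gene Hspb8 (log2 fold change 0.59) and S100b, an astrocyte calcium-binding protein (0.17).

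Among 37 tested signals and transcription factors that act on Gfap and Vim, 4 had all 5 HD mice above all 5 Ctr mice (0.978% of all genes did), and the median log2 fold change was 0.15. The 4 are named after their values were seen: the ligand Tgfb1 (0.90), the oncostatin M receptor Osmr (1.51), Stat3 (0.74) and the glial transcription factor Sox9 (0.42). In Se_HD against Se_Ctr, 3 of 37 had an unadjusted limma p under 0.05 (4.19% of all genes did), each with higher values in Se_HD, and 0 passed on adjusted p. They were Osmr (log2 fold change 0.54), Stat3 (0.15) and Bmp4 (0.69). Stat3 was the 1 listed gene whose 5 Se_HD mice lay above all 5 Se_Ctr mice (0.478% of all genes), at means of 547 and 491 normalized counts. The most abundant genes of the list, Nfib, Nfix, Jak1 and Nfia, had log2 fold changes of 0.23, -0.01, 0.16 and 0.15 in HD against Ctr and of 0.08, -0.13, -0.02 and -0.08 in Se_HD against Se_Ctr.

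Markers of resting and of reactive astrocytes and of microglia were set beside Gfap, without a test of the difference between the lists. For 14 resting astrocyte markers the median log2 fold change of HD against Ctr was 0.19 and 0 had all HD mice above all Ctr mice (0.978% of all genes). The most abundant of them were the glutamate transporters Slc1a2 (0.10) and Slc1a3 (0.17), glutamine synthetase Glul (-0.20) and the glycolytic enzyme Aldoc (0.22). For 17 reactive astrocyte markers the median was 1.17, and 0.76 without HD replicate 2. Of these, 3 had all HD mice above all Ctr mice (0.978% of all genes), the protease inhibitor Serpina3n (1.16), Osmr and complement C3 (1.85), the last 2 named after their values were seen. Serpina3n, Cp, S100a10 and Cd44 were the most abundant of the list, and Cp, which encodes ceruloplasmin, had a log2 fold change of 0.10. In Se_HD against Se_Ctr 5 of 16 tested reactive markers had an unadjusted limma p under 0.05 (4.19% of all genes), all higher in Se_HD, the median was 0.34 and 0 passed on adjusted p. The 9 fibroblast markers had a median of 0.73 in the same comparison, 6 of them at such a p, and their part in the reactive marker values was not tested. The 5 reactive markers were Cp (log2 fold change 0.70), Osmr, which stands in both lists (0.54), Aspg (0.65), the complement inhibitor gene Serping1 (0.70) and Emp1 (0.45), all but Cp named after their values were seen. Serpina3n had a log2 fold change of 0.02.

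Microglia, the resident macrophages of the brain, had a median log2 fold change of HD against Ctr of 0.95 over 12 markers, and 0.73 without HD replicate 2. Of these 12, 7 had all HD mice above all Ctr mice (0.978% of all genes), and all 12 were detected in every library. The summed level was 4015 to 9604 normalized counts in HD against 3093 to 3348 in Ctr, 3041 to 3511 in LD, 3021 to 3608 in Se_Ctr, 3134 to 3557 in Se_LD and 3214 to 3807 in Se_HD. In Se_HD against Se_Ctr the median was 0.09 and 0 of 12 had an unadjusted limma p under 0.05 (4.19% of all genes), a number near that share. The most abundant markers, Csf1r, Ctss, Cx3cr1 and P2ry12, had log2 fold changes of 0.74, 1.09, 0.68 and 0.36 in HD against Ctr and of 0.16, 0.16, -0.04 and 0.07 in Se_HD against Se_Ctr. The part of microglia in the Vim level, a gene they also express, was not tested.

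Of the other cell types, 10 choroid plexus markers had the highest median, 1.42 in HD against Ctr, with a summed level between 9899 and 44555 normalized counts in HD and between 2368 and 43394 in Ctr. The groups overlapped, and 0 of 10 had all HD mice above all Ctr mice (0.978% of all genes). The medians of HD against Ctr were 0.87 for 8 ependymal markers, 0.46 for 14 neural progenitor markers, 0.36 for 5 striatal markers, 0.12 for 6 oligodendrocyte precursor markers, 0.06 for 9 fibroblast markers, 0.05 for 10 endothelial markers, -0.10 for 10 pericyte and smooth muscle markers, -0.13 for 8 neuron markers and -0.14 for 6 oligodendrocyte markers. With HD replicate 2 left out, the medians were 1.47 for choroid plexus, 0.83 for ependymal, 0.26 for neural progenitor, 0.14 for striatal, 0.19 for oligodendrocyte precursor, -0.037 for fibroblast, 0.032 for endothelial, -0.14 for pericyte and smooth muscle, -0.058 for neuron and -0.044 for oligodendrocyte markers. The medians over all genes were 0.01 with and without that mouse. The part of these cells in the Vim values was not tested.

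**Figure D4:**
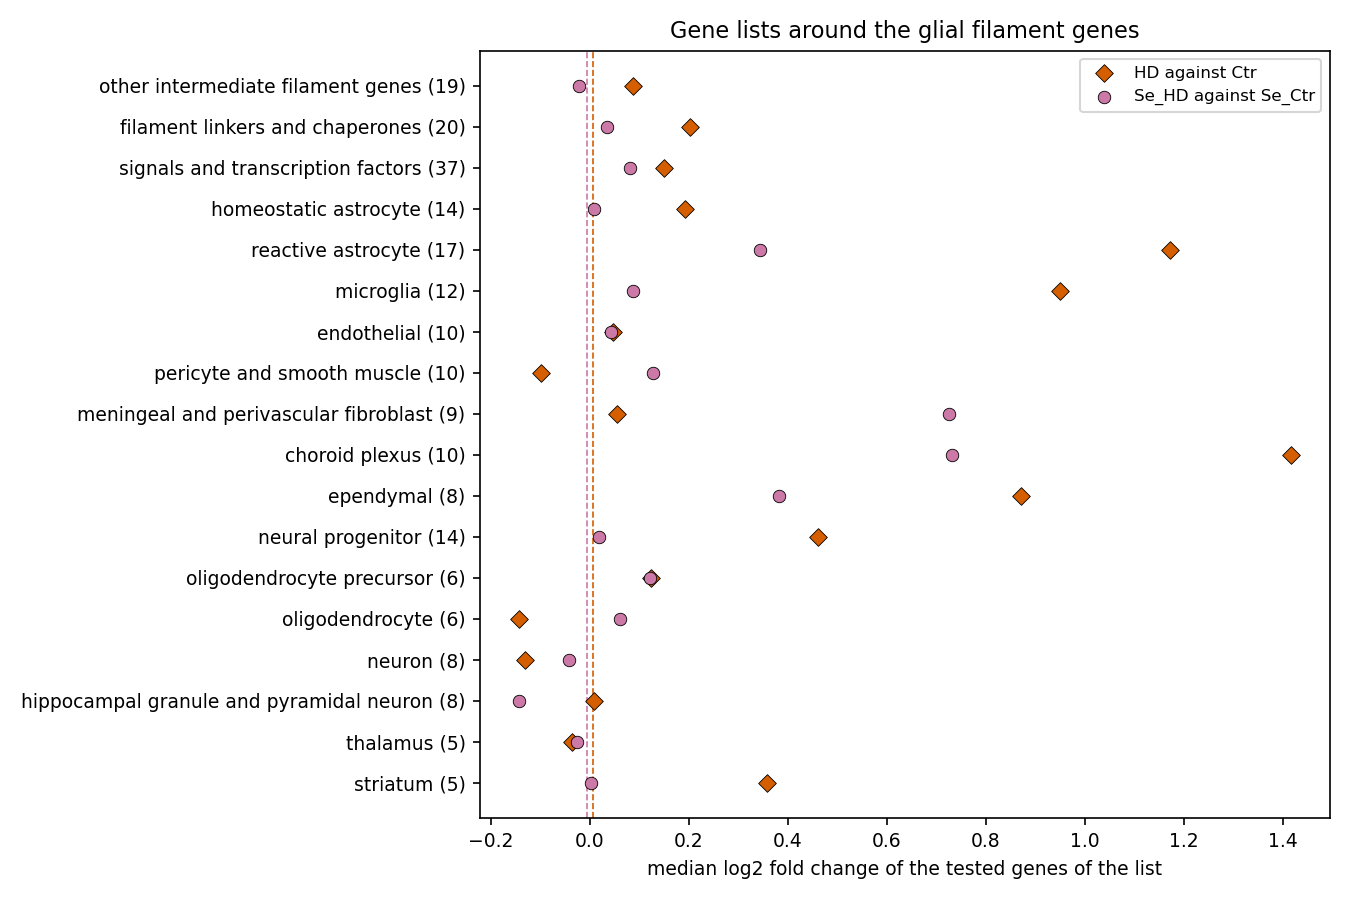
Median log2 fold change of each gene list, with the number of tested genes in HD against Ctr in brackets, in HD against Ctr (diamonds) and Se_HD against Se_Ctr (circles), and dashed lines at the medians of all genes. In HD against Ctr the choroid plexus (1.42), reactive astrocyte (1.17) and microglia (0.95) lists lie farthest to the right, and in Se_HD against Se_Ctr the choroid plexus and fibroblast lists (0.73 each).

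Over the 30 mice the genes whose level was most like that of Gfap were C1qa (Pearson's r 0.95), Mpeg1 (0.94), Ctsd (0.94), Ctss (0.94) and C4b (0.94), among 14292 genes whose mean reached 10 normalized counts. C1qa and C4b encode complement components, Ctsd and Ctss lysosomal proteases, and Mpeg1 a pore-forming protein of macrophages. Without HD replicate 2 these r were between 0.87 and 0.93. The points share libraries and dissections, and the HD mice set most of the range. Spearman's rho over the 30 mice was 0.60 for C1qa, 0.71 for Mpeg1, 0.72 for Ctsd, 0.43 for Ctss and 0.84 for C4b. C4b had means of 251 normalized counts in Ctr, 205 in LD, 891 in HD, 215 in Se_Ctr, 236 in Se_LD and 381 in Se_HD. C4b was picked for its likeness to Gfap, so its order of groups is no separate result. By deviations from the group means the nearest genes to Gfap were Msn (0.91), Tnfrsf1a (0.90), Ctsb (0.90), Cd9 (0.89) and Col16a1 (0.88). These deviation r were between 0.75 (Col16a1) and 0.79 (Msn) without HD replicate 2.

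For Vim the nearest genes by level were S1pr3, a sphingosine-1-phosphate receptor (0.94), Cnn3, an actin-binding calponin (0.94), and Msn, which ties actin to the membrane (0.93). By deviations they were Cnn3 (0.94), S1pr3 (0.93) and the calcium-binding protein gene S100a6 (0.92). Without HD replicate 2 the level r of S1pr3 was 0.68 and its deviation r 0.79. Spearman's rho of the levels of S1pr3 and Vim over all 30 mice was 0.42. For Nes, Papss2, an enzyme of sulfate activation, was nearest by level (0.80) and by deviations (0.82), and r was 0.44 and 0.64 without HD replicate 2. Spearman's rho of the levels of Papss2 and Nes over all 30 mice was 0.26. Next came Ncan, a proteoglycan of the brain matrix (0.79), and Ccdc80 (0.78) by level, and Atp6v0a2 (0.79) and Cd1d1 (0.78) by deviations. Without HD replicate 2 these r were 0.44, 0.31, 0.66 and 0.54. For Synm the nearest by level were Abat, which breaks down the transmitter GABA (0.79), Nwd1 (0.76) and Cyld (0.75), and by deviations the peptidase Mme (0.85), Lsamp (0.82) and Clmn (0.81). No gene was shared between the lists of Synm and Gfap.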

How the data were processed

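The authors extracted RNA from the hippocampus, made libraries with a stranded kit and sequenced them as single-end reads. Per the submitters' processing notes and the study's methods, reads were trimmed with Trim Galore 0.4.2, mapped with HISAT2 to NCBIM37 and counted per gene with featureCounts, and the setting for strand is not given in the sources used here. The deposited values are a signal, the read counts that the authors divided by DESeq2 size factors. All values (100%) were whole reads over a factor per library within 0.001 reads. Symbols were found for 21326 of 21412 identifiers in the annotation of the same build.

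The 4 genes, the gene lists and the tests were chosen with earlier results of these data known. Differences were estimated by limma 3.58.1 (R 4.3.3, variance trend) on log2 values after adding 1 to each normalized count, within each diet (15 libraries each, 20031 and 19679 genes with a sum of at least 10) or over all 30 libraries (21383 genes) for comparisons between diets. Calls used Benjamini-Hochberg adjusted p under 0.05, without a condition on the F test over groups. Exact two-sided permutation tests compared 5 mice against 5 for each gene, and their p were not adjusted for the number of tests. Correlations used 100000 permutations within groups. Each library came from a separate mouse. Named genes were the 4 members, the genes nearest to each by Pearson's r and the 4 most abundant of each list, and others are said to be named after their values were seen. The most abundant genes are printed for the filament, linker, signal, astrocyte and microglia lists.

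The alternatives tried were adding 0.1 or 10, keeping genes whose mean reached 10 or keeping all genes, size factors within the fit, quantile normalization, fits of all 30 libraries or of the 2 groups alone, no trend, a covariate for each run of 6 library numbers, which holds a mouse of each group, leaving out each mouse, and count tests of the recovered reads with edgeR 4.0.16 or with DESeq2 1.42.0. Leaving out HD replicate 2 from the correlations and the list medians was chosen after seeing the data. In data simulated for Se_HD against Se_Ctr, with 200 of 19778 genes changed by a log2 fold change of 1, limma called 180 of them (90%) with 7 false calls. Sequence motifs were searched in NCBIM37 with Python 3.11.15, tables were handled with pandas 2.3.3, numpy 2.4.6 and scipy 1.17.1, and figures were drawn with matplotlib 3.10.9.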

Additional observations from a re-analysis of the deposited data

Results flagged for a closer look

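In 4 of 24 sets of 5 mice (4 genes in 6 groups) the highest or lowest mouse stood apart by Dixon's ratio, its gap to the next mouse over the whole range of the group, taken at 0.71, which chance passes in about 1 of 20 groups. Outside HD the ratio was 0.754 for Nes in Ctr replicate 3, the lowest Ctr mouse at 159 normalized counts, and 0.793 for Synm in Ctr replicate 2, the highest Ctr mouse at 875. In HD, whose values chose the genes, the ratio is a description only. It was 0.926 for Vim and 0.753 for Nes, both in HD replicate 2.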

How the results depend on the processing

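Of 520 alternative values for the 24 tested differences of single genes, 498 kept the direction and the side of the threshold, and 22 changed sign without passing it. The lowest adjusted p was 0.0804 (DESeq2, Gfap in Se_HD against Se_LD), and for Gfap in Se_HD against Se_Ctr the adjusted p ranged from 0.0985 (DESeq2) to 1.00. The sign changes touched 8 log2 differences that lay between -0.07 and 0.03. Leaving out each mouse in turn gave -0.19 to 0.064 for Nes and -0.049 to 0.046 for Synm in LD against Ctr, -0.053 to 0.11 for Gfap in Se_LD against Se_Ctr and -0.10 to 0.024 for Synm in Se_HD against Se_LD. It gave -0.037 to 0.083 for Gfap and -0.071 to 0.024 for Synm in Se_Ctr against Ctr, and -0.13 to 0.033 for Gfap and -0.11 to 0.14 for Vim in Se_LD against LD, where edgeR gave 0.0033 for Vim. The cause was not tested.

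Without the 5 HD mice, r was 0.10 for Gfap and Synm, -0.024 for Vim and Nes, -0.20 for Vim and Synm and 0.37 for Nes and Synm. Without HD replicate 2 it was -0.18 for Vim and Nes, -0.43 for Vim and Synm and 0.46 for Nes and Synm. By replicate number, no paired analysis was possible because these numbers follow accession order and pair no mice. With the run of 6 library numbers as a covariate, which blocks by a set with a mouse of each group, the limma p of Gfap in Se_HD against Se_Ctr was 5.5e-05 (adjusted p 0.358) and that in Se_HD against Se_LD 6.5e-05 (adjusted p 0.423), and no call changed. The number of reads limits Nes and Vim most, and with 5 mice a group no exact p can be under 0.00794.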
